A study of Mus musculus with 2 samples.

Results

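The genes described here make cholesterol and fatty acids or regulate and export cholesterol. They are 33 of the 32285 genes in the deposited feature lists, and were chosen by symbol. They comprise 8 genes of the mevalonate pathway, 11 of the sterol arm that leads from squalene to cholesterol, 6 regulators, with the sterol carrier Stard4 among them, 6 genes of fatty acid synthesis and the 2 exporters Abca1 and Abcg1. Their transcripts were counted in CD45+ leukocytes sorted from spleens of WT mice. All animals were given 10000 iRBCs intraperitoneally, an abbreviation that the labels do not spell out, and spleens were taken on day 5. The Glutoborin group received Glutoborin on days 2 and 4, and the Vehicle group received Vehicle on the same days. Glutoborin is not described further in the labels. Each group is 1 droplet library, and how many mice it holds, their sex and their age are not given in the labels.

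Cells build cholesterol from acetyl-CoA through mevalonate, isoprenoid diphosphates and squalene. The isoprenoids also feed protein prenylation and other branches. The genes of this pathway are switched on together by SREBP2, a membrane-bound transcription factor encoded by Srebf2. When sterols are low, the escort protein SCAP carries SREBP2 out of the endoplasmic reticulum, and when sterols are plentiful the INSIG proteins hold it there. SREBP1, encoded by Srebf1, drives fatty acid genes such as Fasn and Scd1. Liver X receptors, which sense oxysterols, switch on the exporters Abca1 and Abcg1 and also Srebf1. Lymphocytes raise sterol and fatty acid synthesis when they grow and divide, and macrophages rely on cholesterol export.

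The Glutoborin library held 9646 barcodes and 56862506 UMIs (unique molecular identifiers, each counting 1 RNA molecule), and the Vehicle library 8204 barcodes and 48526451 UMIs. After filtering, 8901 Glutoborin and 6492 Vehicle cells remained, with medians of 4811 and 5688 UMIs. At least 10% of UMIs were mitochondrial in 4.07% of the Glutoborin and 18.5% of the Vehicle barcodes, which were left out. The libraries shared 24 barcode sequences. Cells were assigned to gates by marker UMIs. The NK gate required at least 1 UMI of Ncr1 or Klrb1c, natural killer cell receptors that some other innate lymphoid cells also carry, and no Cd3e. It held 328 Glutoborin and 217 Vehicle cells, the B gate 4902 and 3289, the T gate 2524 and 1836, and the monocyte gate 172 and 194. Cells that met more than 1 gate were set aside, 415 and 563 in all. Levels are given as CPM, UMIs per 1000000 UMIs of the gate, so a lower value can mean fewer expressing cells or fewer transcripts per cell. The labels of the gate were checked with markers that it did not use: Klre1, Klrd1, Gzma, Prf1 and Eomes together reached 15031 CPM in Glutoborin and 15599 in Vehicle NK cells, against 24.8 and 28.1 CPM in B cells. Macrophages by the first gate were 7 and 4 cells and were not compared.

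In Glutoborin NK cells the sterol pathway stood at the lowest level of the 4 gates compared, and below its Vehicle level. The mevalonate genes Fdps and Idi1 and the sterol gene Cyp51 had the lowest ratios, while the exporter Abcg1 and the elongase Elovl6 were higher in Glutoborin. The 19 mevalonate and sterol genes together gave 713 UMIs or 298 CPM in Glutoborin NK cells, against 908 UMIs or 463 CPM in Vehicle NK cells. The log2 ratio of Glutoborin over Vehicle was -0.63, with a 95% exact interval of -0.78 to -0.49. All intervals of levels and ratios cover counting error only, and with 1 library per group there is no test and no spread between animals. Members with at least 50 UMIs in a gate over both libraries are called measured. In the NK gate 21 of the 33 were measured, 7 of them at least 1.5-fold lower and 2 at least 1.5-fold higher in Glutoborin. Over all 7174 genes measured in the NK gate, 5.77% were that much lower and 7.33% that much higher. The median log2 ratio was -0.42 over the 21 measured members and 0.02 over all measured genes. A 95% interval of the member median, taken from the order of the members' ratios, ran from -0.68 to 0.02. This order interval reached the median of all measured genes. It describes the spread among members, which are no replicates.

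**Figure D1:**
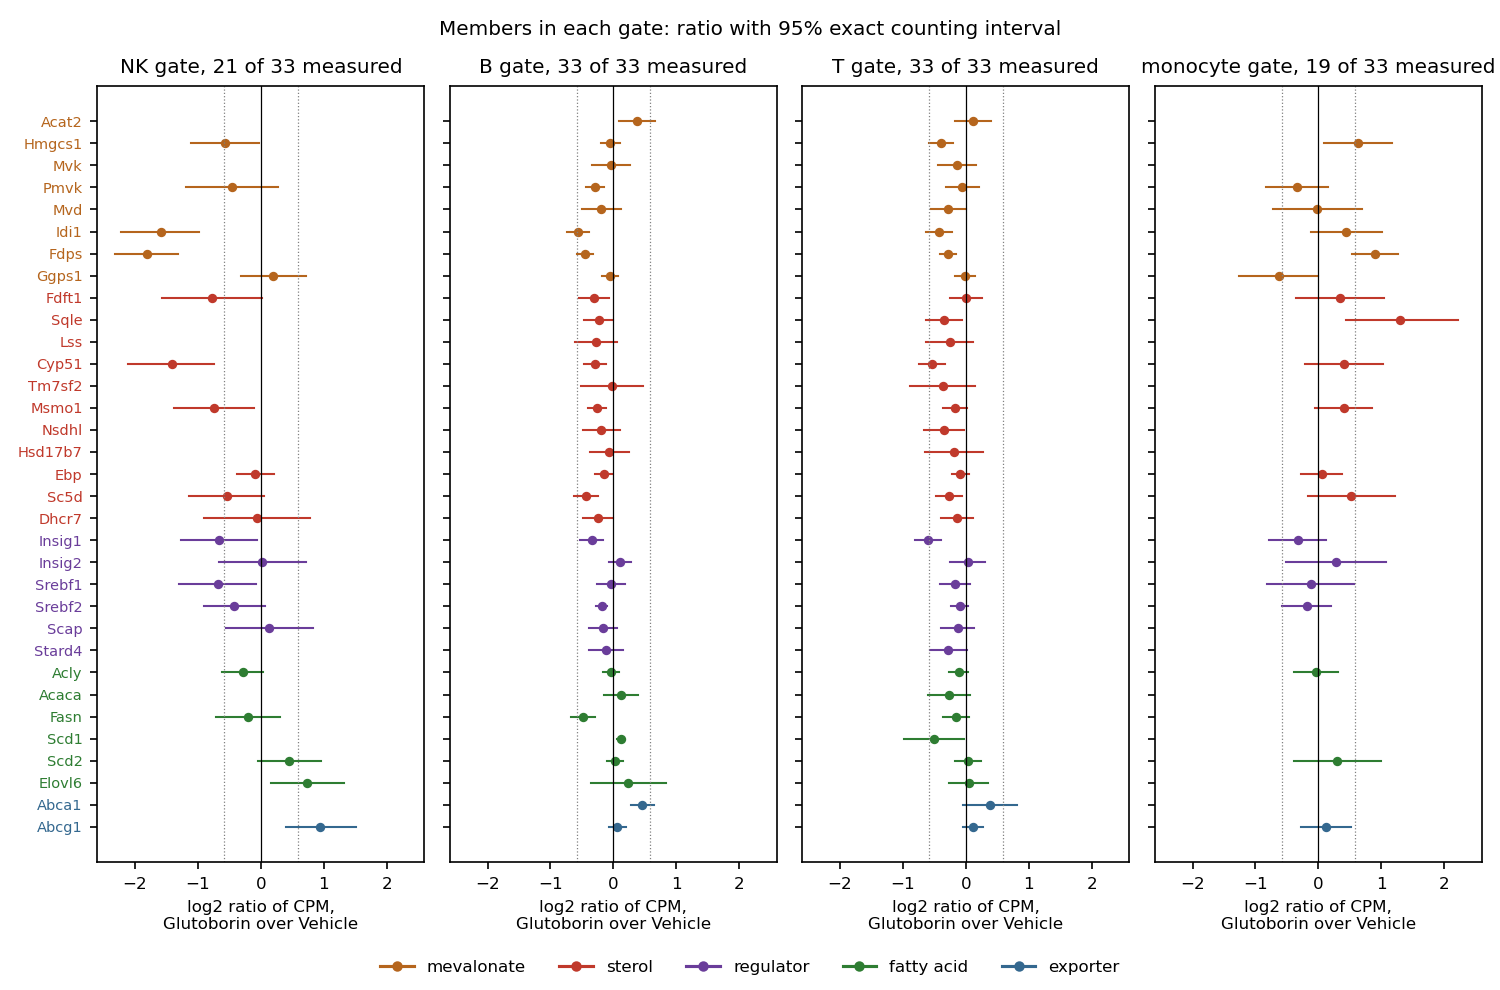
Log2 ratio of CPM, Glutoborin over Vehicle, for each member with at least 50 UMIs in the NK, B, T and monocyte gates; points are ratios, bars 95% exact counting intervals, dotted lines 1.5-fold, and a gap marks a member under 50 UMIs. Fdps, Idi1 and Cyp51 lie farthest left in the NK gate, and Fdps, Sqle and Hmgcs1 lie to the right in the monocyte gate.

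In the mevalonate block, Fdps (chromosome 3, 89093588 to 89101959, minus strand, GRCm38) encodes farnesyl diphosphate synthase, which makes the branch-point isoprenoid. Fdps had 47 UMIs in Glutoborin NK cells, 19.6 CPM, and 135 UMIs in Vehicle NK cells, 68.8 CPM, a log2 ratio of -1.81 (-2.32 to -1.32). It was the 7th lowest ratio of the 7174 measured genes. Idi1 (chromosome 13, 8885501 to 8892451, plus strand), the isopentenyl diphosphate isomerase that acts just before Fdps, had 32 UMIs or 13.4 CPM in Glutoborin and 79 UMIs or 40.3 CPM in Vehicle NK cells. Its log2 ratio was -1.59 (-2.23 to -0.98), the 13th lowest. Hmgcs1, the HMG-CoA synthase at the head of the pathway, had 55 UMIs in Glutoborin and 67 in Vehicle NK cells, a ratio of -0.57 (-1.11 to -0.03). Ggps1, which makes geranylgeranyl diphosphate for prenylation, had 78 UMIs or 32.6 CPM in Glutoborin and 56 UMIs or 28.5 CPM in Vehicle NK cells. Its ratio was 0.19, with an interval of -0.32 to 0.71 that reached no change. Pmvk, phosphomevalonate kinase, was at -0.46 with an interval that reached no change. The block as a whole summed to 122 CPM in Glutoborin and 214 CPM in Vehicle NK cells, and its log2 ratio was -0.82 (-1.04 to -0.60).

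In the sterol arm, Cyp51 (chromosome 5, 4081145 to 4104746, minus strand), which demethylates lanosterol, had 28 UMIs or 11.7 CPM in Glutoborin and 61 UMIs or 31.1 CPM in Vehicle NK cells. Its log2 ratio was -1.41 (-2.11 to -0.74). Msmo1, the methylsterol monooxygenase of the next steps, had 38 UMIs or 15.9 CPM in Glutoborin and 52 UMIs or 26.5 CPM in Vehicle NK cells, a ratio of -0.74 (-1.38 to -0.11). Fdft1, squalene synthase, was at -0.77 with an upper bound of 0.01. Ebp, a sterol isomerase, had 207 UMIs or 86.5 CPM in Glutoborin and 181 UMIs or 92.2 CPM in Vehicle NK cells, with an interval of -0.39 to 0.20. Sc5d and Dhcr7, which act near the end of the arm, had intervals that reached no change. The arm summed to 176 CPM in Glutoborin and 249 CPM in Vehicle NK cells, a ratio of -0.50 (-0.69 to -0.30).

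The stretches before the RefSeq transcription starts of Hmgcs1, Idi1, Cyp51 and Msmo1 are printed here. They come from RefSeq promoters on GRCm38.p6, read 5′ to 3′ on the gene's strand. These starts can differ from the gene positions used here, which are from GENCODE M21. By those positions the stretches of Idi1, Cyp51 and Msmo1 lie inside the gene, and that of Hmgcs1 lies before it. Capitals mark CCAAT or its reverse complement ATTGG, the letters bound by NF-Y, a factor known to work beside SREBPs, and, in Hmgcs1, TCACNCCAC, letters of a sterol regulatory element.
Hmgcs1, chr13:119690102-119690322, plus strand: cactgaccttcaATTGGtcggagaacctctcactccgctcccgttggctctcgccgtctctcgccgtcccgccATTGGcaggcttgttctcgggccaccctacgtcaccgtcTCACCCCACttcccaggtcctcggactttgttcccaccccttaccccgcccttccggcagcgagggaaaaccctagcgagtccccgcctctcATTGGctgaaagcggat
Idi1, chr13:8885549-8885605, plus strand: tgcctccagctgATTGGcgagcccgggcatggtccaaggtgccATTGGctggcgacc
Cyp51, chr5:4104710-4104738, minus strand: cgctgtccgccaCCAATctggtcctgaga
Msmo1, chr8:64733617-64733750, minus strand: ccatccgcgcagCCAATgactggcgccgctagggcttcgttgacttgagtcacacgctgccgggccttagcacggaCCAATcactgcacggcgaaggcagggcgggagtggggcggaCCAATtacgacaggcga
Of the 33 members, 26 had an entry. CCAAT, searched on both strands in the 250 bases before each start, was found in 20 of these 26 members, against 37.5% of all 27025 genes with an entry. It occurred 2 or more times in a window in 12 of the 26, against 11.5% of all genes. Hmgcs1 and Msmo1 carried it 3 times, Idi1 2 times and Cyp51 1 time. Ggps1 and Insig2, with NK log2 ratios of 0.19 and 0.02, also carried it 3 times. A relation of the motif to the ratios was not tested. TCACNCCAC, searched the same way, was found in Hmgcs1 alone among the members and in 1.22% of all genes. The motifs share no letters where they were found. A match is a run of letters and no measured site, and members without a match may carry other forms of these elements. Fdps, Fdft1, Sqle, Stard4, Scd1, Scd2 and Abcg1 had no entry.

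Among the regulators in the NK gate, Insig1, itself a target of SREBP2 and the protein that retains it, had 43 UMIs or 17.97 CPM in Glutoborin and 56 UMIs or 28.5 CPM in Vehicle NK cells. The log2 ratio was -0.67 (-1.28 to -0.07). Srebf1 had 41 UMIs or 17.1 CPM in Glutoborin and 54 UMIs or 27.5 CPM in Vehicle NK cells, a ratio of -0.68 (-1.31 to -0.07), and this direction turned to 0.47 (-0.78 to 1.82) after thinning each cell to 2000 UMIs. Srebf2, Scap and Insig2 had intervals that reached no change, with ratios of -0.42, 0.13 and 0.02. Fewer than 50 UMIs were counted for the sterol carrier Stard4.

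The fatty acid genes of NK cells summed to 183 CPM in Glutoborin and 180 CPM in Vehicle, with a log2 ratio of 0.02 (-0.19 to 0.22). Within them Elovl6 (chromosome 3, 129532355 to 129638495, plus strand), the elongase that extends palmitate, was higher: 81 UMIs or 33.9 CPM in Glutoborin and 40 UMIs or 20.4 CPM in Vehicle NK cells, a ratio of 0.73 (0.17 to 1.32). Fasn, fatty acid synthase, and Acly, which supplies cytosolic acetyl-CoA, were at -0.20 and -0.29, and the desaturase Scd2 at 0.45. The intervals of these 3 reached no change. Abcg1 (chromosome 17, 31057675 to 31117988, plus strand), which exports cholesterol to lipoproteins, had 94 UMIs or 39.3 CPM in Glutoborin and 40 UMIs or 20.4 CPM in Vehicle NK cells. The log2 ratio was 0.95 (0.40 to 1.52), the 128th highest of 7174. The other exporter, Abca1, had 14 UMIs in Glutoborin and 8 in Vehicle NK cells, too few to be measured.

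**Figure D2:**
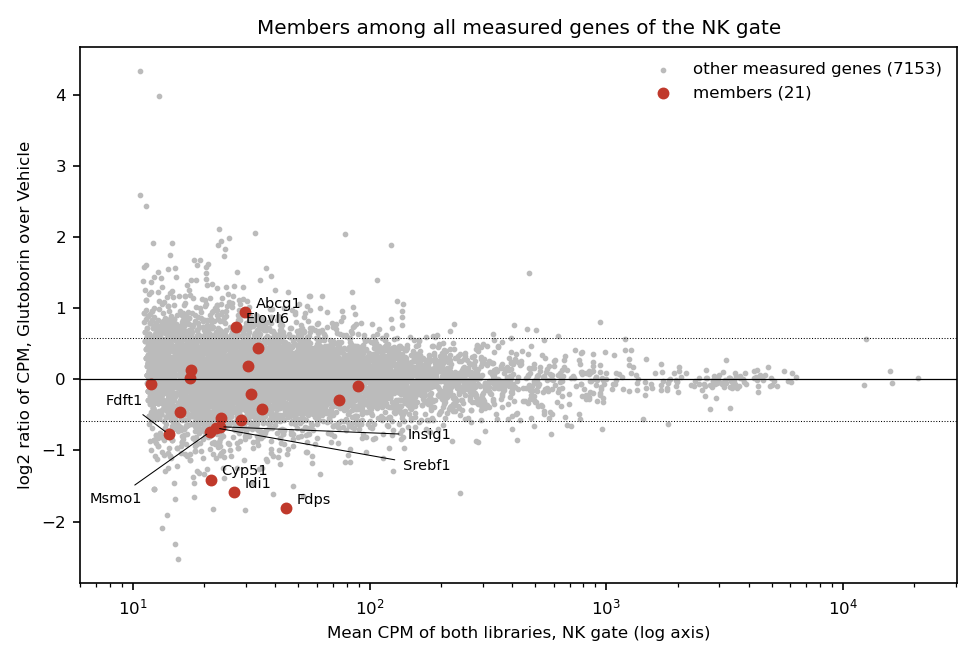
Each measured gene of the NK gate by its mean CPM of both libraries (log axis) and its log2 ratio of CPM, Glutoborin over Vehicle; red points are the 21 measured members, grey points the other 7153 genes, and dotted lines mark 1.5-fold. Fdps, at -1.81, lies at the lower edge of the cloud for its level, and Abcg1, at 0.95, lies inside the upper part.

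The 12 members under 50 UMIs in the NK gate were Acat2, Mvk, Mvd, Sqle, Lss, Tm7sf2, Nsdhl, Hsd17b7, Stard4, Acaca, Scd1 and Abca1. Among them Sqle, squalene epoxidase, had 6 UMIs in Glutoborin and 20 in Vehicle NK cells, with an interval of -3.63 to -0.65, and Stard4 had 19 and 29 UMIs, with an interval of -1.81 to -0.01. For 9 others the interval reached no change. Tm7sf2, a sterol reductase, had 0 and 3 UMIs, and no ratio is given for it.

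Several properties of the NK gate differed between the libraries beside these values. The stages of the cell cycle were one of them. Mki67, a proliferation marker, was detected in 13.4% of Glutoborin and 19.8% of Vehicle NK cells, while its level was 204 CPM in Glutoborin and 173 CPM in Vehicle. A list of 42 S phase genes summed to 1797 CPM in Glutoborin and 2882 CPM in Vehicle NK cells, a log2 ratio of -0.68 (-0.74 to -0.62), and 24 of its 39 measured genes were at least 1.5-fold lower and none higher. A list of 52 genes of G2 and M phase summed to 5496 CPM in Glutoborin and 4199 CPM in Vehicle NK cells, a ratio of 0.39 (0.35 to 0.43), and 22 of its 45 measured genes were at least 1.5-fold higher and none lower. Both lists were added after the data were seen. Without the cells that carried Mki67, the sterol pathway ratio was -0.67 and that of Fdps -1.97, and 4 of 18 measured members were at least 1.5-fold lower, against 4.96% of 6244 measured genes. In those cells the S phase genes were still lower in Glutoborin, at -0.41, and the G2 and M phase genes were at 0.08 (-0.01 to 0.16). The part of the cell cycle in the result was not tested.

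Leaving out for each gene the 10 cells richest in it in each library gave -0.45 (-0.61 to -0.29) for the sterol pathway and -1.63 for Fdps. With a mitochondrial limit of 25% the sterol pathway ratio was again -0.63. When cells that also met another gate were kept, as the NK rule read alone would have it, 82 Glutoborin and 93 Vehicle cells were added. Fdps then had a ratio of -1.22 (-1.60 to -0.85), on 90 and 192 UMIs, and the sterol pathway sum -0.61. Check markers of other cells, 5 for each type, were also counted in the NK gate. Dendritic markers summed to 650.02 CPM in Glutoborin and 976 CPM in Vehicle NK cells, with 2 of 5 at 0 in Vehicle. T cell markers stood at 767 and 618 CPM, monocyte markers at 711 and 556 CPM and B cell markers at 262 and 341 CPM, with none at 0. Haemoglobin transcripts summed to 50.6 and 4.08 CPM over 4 markers, but 119 of the 121 Glutoborin UMIs came from 1 cell. The 5 macrophage markers stood at 34.7 and 8.66 CPM, with 1 at 0 in Vehicle, the 5 neutrophil markers at 25.1 and 36.2 CPM and the 3 immunoglobulin genes at 535 and 844 CPM. Their part in the result was not tested.

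In monocytes the sterol pathway, and Fdps with it, was higher in Glutoborin. The sterol pathway genes gave 929 UMIs or 538 CPM in Glutoborin and 826 UMIs or 421 CPM in Vehicle monocytes, a log2 ratio of 0.35 (0.21 to 0.49). Of the 33 members 19 were measured, and 3 were at least 1.5-fold higher in Glutoborin and 1 lower, where 4.21% of all 6511 measured genes were higher and 5.85% lower. The median ratio was 0.28 over the 19 members and -0.01 over all measured genes. The order interval of the member median, -0.12 to 0.45, held the median of all measured genes. Fdps had 171 UMIs or 99.0 CPM in Glutoborin and 104 UMIs or 53.0 CPM in Vehicle monocytes, a ratio of 0.90 (0.54 to 1.27). Sqle had 37 UMIs or 21.4 CPM in Glutoborin and 17 UMIs or 8.67 CPM in Vehicle monocytes, a ratio of 1.30 (0.44 to 2.23). Hmgcs1 had 71 UMIs in Glutoborin and 52 in Vehicle monocytes, a ratio of 0.63 (0.10 to 1.18). These 3 stand at the head, the branch point and the first oxygen-requiring step of the pathway. Ggps1 was lower, with 36 UMIs or 20.8 CPM in Glutoborin and 63 UMIs or 32.1 CPM in Vehicle monocytes, a ratio of -0.63 (-1.26 to -0.01).

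The other measured sterol genes of monocytes, Fdft1, Cyp51, Msmo1, Ebp and Sc5d, had ratios from 0.05 to 0.52, and each interval reached no change. The same held for the mevalonate genes Idi1, Mvd and Pmvk, at 0.45, -0.02 and -0.34. Among the regulators, Insig1, Srebf2, Srebf1 and Insig2 were at -0.33, -0.18, -0.12 and 0.28, all with intervals that reached no change. Fatty acid genes summed to 129 CPM in Glutoborin and 125 CPM in Vehicle monocytes. Abcg1 was at 62.5 CPM in Glutoborin and 57.6 CPM in Vehicle monocytes. The 14 members under 50 UMIs were Acat2, Mvk, Lss, Tm7sf2, Nsdhl, Hsd17b7, Dhcr7, Scap, Stard4, Acaca, Fasn, Scd1, Elovl6 and Abca1. The make-up of this gate differed between the libraries as well. Its monocyte check markers summed to 5301 CPM in Glutoborin and 8452 CPM in Vehicle, its dendritic markers to 1387 and 803 CPM, and its neutrophil markers to 2091 and 1539 CPM, with 1 of 5 neutrophil markers at 0 in each library. Immunoglobulin transcripts stood at 496 CPM in Glutoborin and 903 CPM in Vehicle. The part of these differences in the result was not tested. After thinning to 2000 UMIs, the sterol pathway ratio of monocytes was 0.17 with an interval of -0.18 to 0.52, and that of Fdps 0.44 (-0.45 to 1.34).

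**Figure D3:**
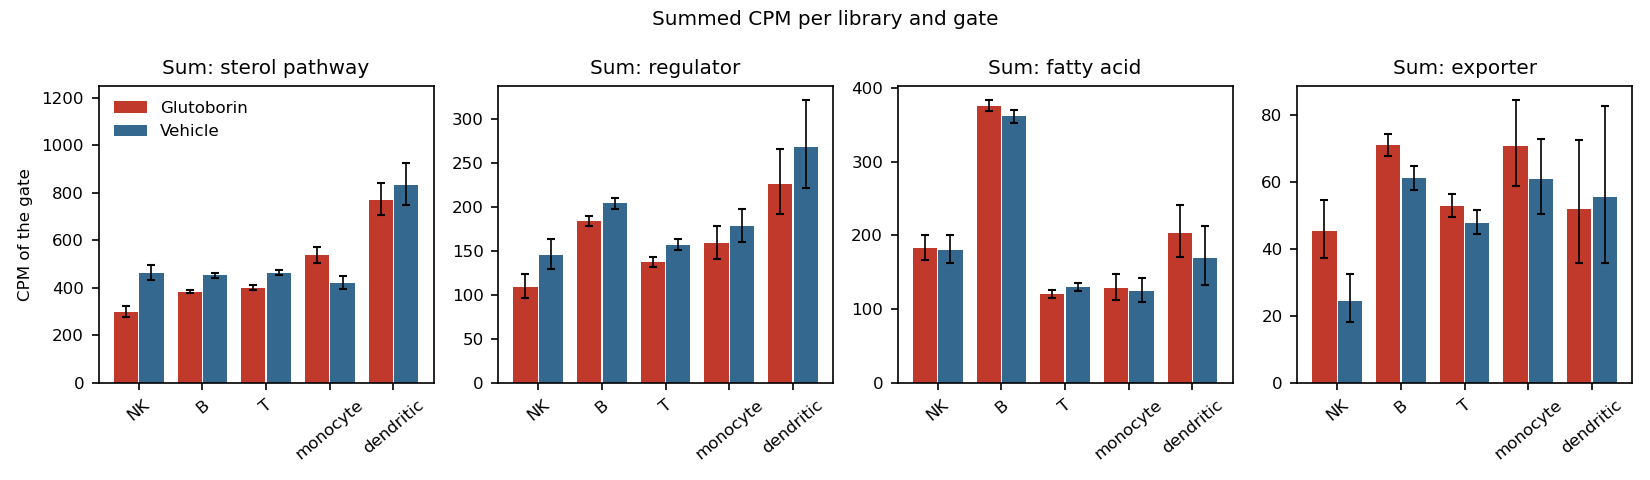
Summed CPM of the 19 sterol pathway genes, 6 regulators, 6 fatty acid genes and 2 exporters per gate, Glutoborin (red) left of Vehicle (blue); error bars are 95% exact Poisson intervals. The sterol pathway bar is lower in Glutoborin in the NK, B and T gates and higher in the monocyte gate, and B cells stand out in the fatty acid panel.

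In B cells the differences were smaller and better counted. All 33 members were measured, none reached 1.5-fold, and 25 had a ratio below 1. Over all 10678 measured genes of the B gate 3.14% were at least 1.5-fold lower and 2.78% higher. The median log2 ratio was -0.15 over the 33 members, with an order interval of -0.24 to -0.04, and 0.02 over all measured genes. The share of all genes with a ratio below 1 was not counted. The sterol pathway genes summed to 383 CPM in Glutoborin and 451 CPM in Vehicle B cells, a log2 ratio of -0.24 (-0.28 to -0.19). All 11 genes of the sterol arm had ratios below 1. Idi1 had 529 UMIs or 21.4 CPM in Glutoborin and 590 UMIs or 31.5 CPM in Vehicle B cells, a ratio of -0.56 (-0.73 to -0.39). Fdps had 43.1 CPM in Glutoborin and 58.8 CPM in Vehicle B cells, a ratio of -0.45 (-0.57 to -0.33). Sc5d, Insig1, Fdft1, Cyp51, Pmvk and Msmo1 were at -0.43, -0.35, -0.30, -0.29, -0.29 and -0.27, and each interval lay below 0. Srebf2 had 96.5 CPM in Glutoborin and 110 CPM in Vehicle B cells, a ratio of -0.19 (-0.27 to -0.10). Acat2, the thiolase at the start of the pathway, went the other way, with 11.3 CPM in Glutoborin and 8.76 CPM in Vehicle B cells and a ratio of 0.37 (0.08 to 0.65).

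Fatty acid and export genes of B cells had ratios on both sides of 1. Fasn had 17.1 CPM in Glutoborin and 23.9 CPM in Vehicle B cells, a log2 ratio of -0.48 (-0.68 to -0.29). Scd1, the desaturase that makes oleate, had 255 CPM in Glutoborin and 235 CPM in Vehicle B cells, from 6314 and 4395 UMIs, a ratio of 0.12 (0.06 to 0.17). Abca1 was the member with the highest ratio in B cells, with 727 UMIs or 29.3 CPM in Glutoborin and 400 UMIs or 21.4 CPM in Vehicle, a ratio of 0.46 (0.28 to 0.64). The ratio of Abcg1 in B cells was 0.06 (-0.07 to 0.20).

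In T cells the sterol genes were also slightly lower in Glutoborin. All 33 members were measured, 1 was at least 1.5-fold lower and none higher, where 3.32% of 10500 measured genes were lower and 2.19% higher. A ratio below 1 was found for 26 members, and the share of all genes below 1 was again not counted. The median log2 ratio was -0.17 over the 33 members, with an order interval of -0.28 to -0.10, and -0.02 over all measured genes. The sterol pathway summed to 400.1 CPM in Glutoborin and 463 CPM in Vehicle T cells, a log2 ratio of -0.21 (-0.26 to -0.16). Insig1 had 336 UMIs or 20.05 CPM in Glutoborin and 428 UMIs or 30.5 CPM in Vehicle T cells, a ratio of -0.61 (-0.82 to -0.40). It passed 1.5-fold by so little that scaling by TMM factors left no member past it. Cyp51, at 20.2 CPM in Glutoborin and 29.2 CPM in Vehicle T cells, had a ratio of -0.54 (-0.75 to -0.32). Idi1, Hmgcs1, Sqle, Fdps and Sc5d were at -0.43, -0.39, -0.35, -0.28 and -0.26, and Scd1 at -0.50 on 70 and 83 UMIs, all with intervals below 0.

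CD8 T cells, 1151 Glutoborin and 811 Vehicle cells, held 4 members at least 1.5-fold lower of 33 measured and none higher, against 4.21% lower and 1.97% higher of 9354 genes. These were Idi1 (-0.68, -1.003 to -0.35), Insig1 (-0.66, -0.99 to -0.33), Cyp51 (-0.60, -0.94 to -0.27) and Scd1 (-0.69, -1.37 to -0.02), the last on 35 and 45 UMIs. Hmgcs1, Stard4, Fdps and Acly were at -0.51, -0.55, -0.27 and -0.28. In the 601 Glutoborin and 506 Vehicle CD4 T cells none of the 29 measured members reached 1.5-fold, against 3.65% lower and 2.74% higher of 8024 genes. Fdps had 66.8 CPM in Glutoborin and 88.5 CPM in Vehicle CD4 T cells, a ratio of -0.40 (-0.66 to -0.15). Cyp51 and Insig1 were at -0.42 and -0.44. Ggps1 was at 0.33 (0.01 to 0.65) in CD4 T cells. Transcripts of B cells differed in these gates as well: the 5 B cell check markers summed to 1239 CPM in Glutoborin and 456 CPM in Vehicle CD4 T cells, and the 3 immunoglobulin genes to 3685 and 998 CPM, with none at 0. In CD8 T cells the same B cell markers stood at 343 CPM in Glutoborin and 447 CPM in Vehicle, and the immunoglobulin genes at 525 and 865 CPM. Their part in these values was not tested.

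**Figure D4:**
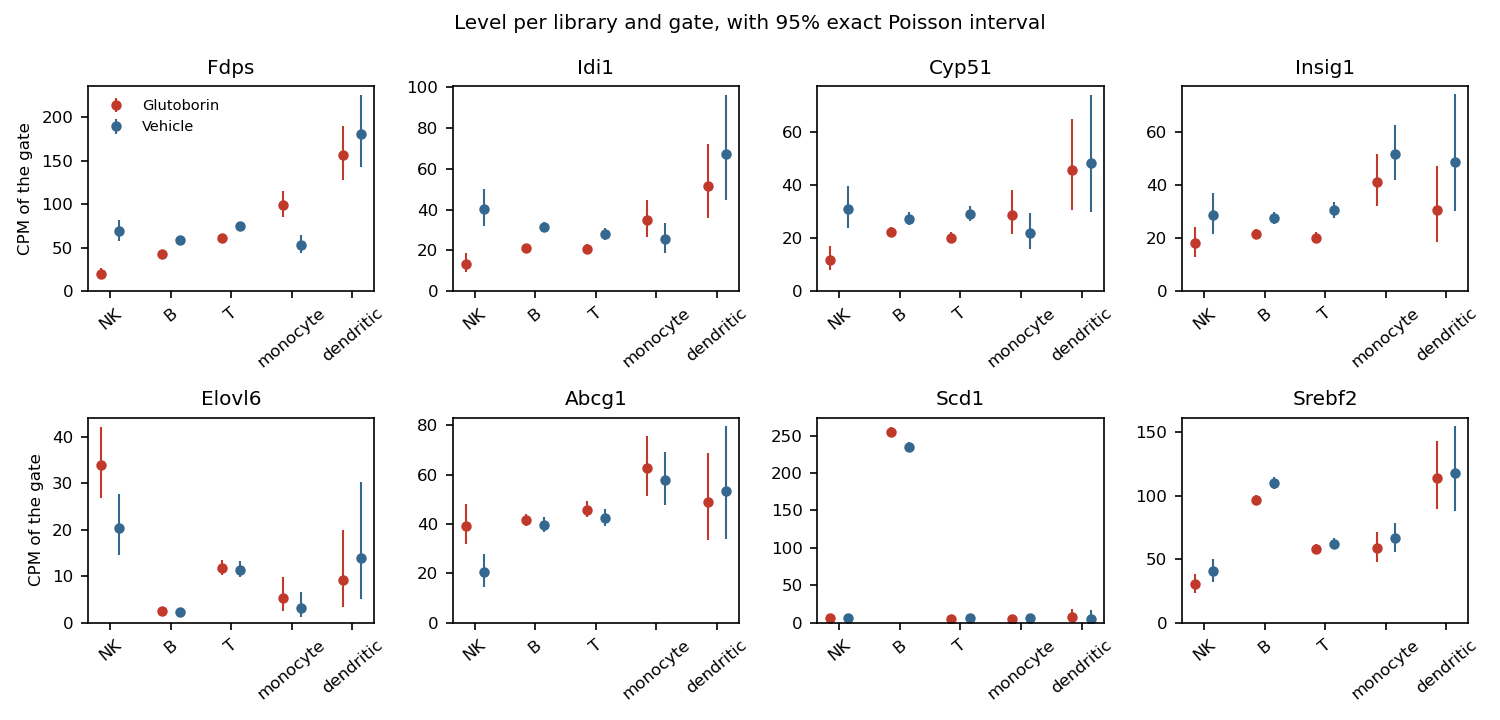
CPM of 8 members in the NK, B, T, monocyte and dendritic gates, Glutoborin (red) left of Vehicle (blue), with 95% exact Poisson intervals. Fdps, Idi1 and Cyp51 separate the libraries most in the NK gate, Scd1 is high in the B gate of both libraries, and Elovl6 is highest in the NK gate of both.

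The order of the gates differed between the libraries for much of the mevalonate and sterol pathway. For 21 of the 33 members the same gate of the 4 was highest in both libraries, namely B cells for 7, monocytes for 6, and NK and T cells for 4 each. For 12 members it differed, among them Hmgcs1, Idi1, Fdps, Sqle and Cyp51. Each of these 5 was highest in monocytes and lowest in NK cells in the Glutoborin library. In the Vehicle library each was lowest in monocytes. The spread between gates was wide in Glutoborin, where Fdps was 5.04-fold higher in monocytes than in NK cells, and narrow in Vehicle, where the highest gate was 1.40-fold over the lowest. In Vehicle, T and NK cells, at 74.4 and 68.8 CPM of Fdps, had overlapping intervals, and so had NK and B cells and, at 58.8 and 53.0 CPM, B cells and monocytes.

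NK cells were tested against the other gates with edgeR's quasi-likelihood test on the summed UMIs of both libraries, with the library as a block. These p-values rest on 2 libraries that also differ in treatment. All 33 members passed the filter on low counts. In NK cells 3 members were higher and 13 lower than in B cells, at a Benjamini-Hochberg adjusted p under 0.05, where 24.2% of 12180 genes were higher and 23.8% lower. Against T cells 3 were higher and 10 lower, with 19% and 18.1% of genes. Against monocytes 4 were higher and 8 lower, with 26.1% and 25.5% of genes.

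Scd1 and Elovl6 had the widest spread of CPM over the 4 gates among the members in both libraries, leaving out Tm7sf2, which had 0 UMIs in Glutoborin NK cells. Scd1 (chromosome 19, 44394455 to 44407879, minus strand) was counted at 6.27 CPM in Glutoborin and 5.61 CPM in Vehicle NK cells, and at 255 and 235 CPM in B cells. The log2 fold change of NK over B was -5.53 ± 0.189 (SE; edgeR adjusted p = 2.91e-11). T cells had 4.18 and 5.92 CPM of Scd1 and monocytes 4.63 and 6.12 CPM, with intervals that overlapped those of NK cells. Immunoglobulin transcripts, which B-lineage cells make, were found beside it at 535 and 844 CPM in NK cells and 21093 and 19615 CPM in B cells. Whether the Scd1 UMIs outside the B gate came from free RNA was not tested. Scd1 and Scd2 are related copies, as are Acat2 and Acat3, and the handling of reads shared by copies was not stated in the sources used here.

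Elovl6 was the opposite case. It stood at 33.9 CPM in Glutoborin and 20.4 CPM in Vehicle NK cells, at 11.8 and 11.4 CPM in T cells, at 5.21 and 3.06 CPM in monocytes and at 2.58 and 2.19 CPM in B cells. NK cells were above T cells and T cells above both others in each library, while monocytes and B cells had overlapping intervals. The log2 fold change of NK over B was 3.33 ± 0.235 (SE; edgeR adjusted p = 5.26e-08), over monocytes 2.58 ± 0.346 and over T cells 1.05 ± 0.202, and all 3 passed. Fasn was higher in NK cells than in monocytes by 1.91 ± 0.321 (edgeR adjusted p = 0.000224) and did not pass against B or T cells. Acly was higher in NK than in B and T cells, by 0.50 and 0.43. Scd2 was lower in NK cells than in B cells, by -0.54, and higher than in monocytes, by 0.59. Its NK and B cell intervals overlapped in Glutoborin, and its NK and monocyte intervals overlapped in Vehicle.

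**Figure D5:**
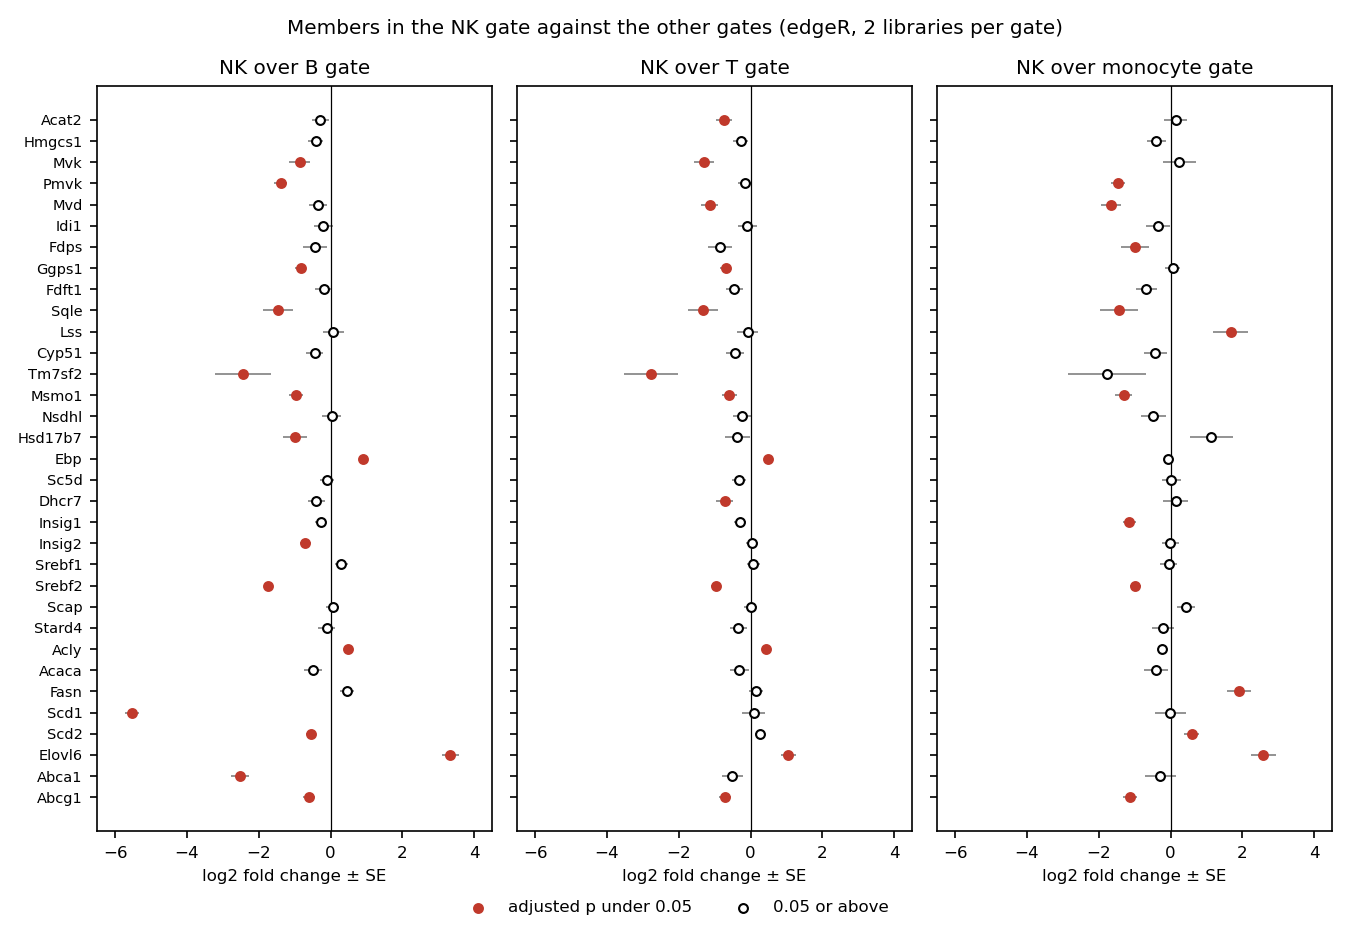
Log2 fold change of the NK gate over the B, T and monocyte gates for the 33 members, with the standard error, from edgeR on 2 libraries per gate; filled points have an adjusted p under 0.05. Scd1 lies farthest left against B cells, Elovl6 lies right in all 3 panels, and Srebf2 left in all 3.

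Srebf2 (chromosome 15, 82147181 to 82205379, plus strand), which encodes the main activator of the sterol genes, was lower in NK cells than in each other gate. It had 30.1 CPM in Glutoborin and 40.3 CPM in Vehicle NK cells, against 96.5 and 110 CPM in B cells, 58.1 and 62.2 CPM in T cells and 58.4 and 66.3 CPM in monocytes. The log2 fold change was -1.74 ± 0.125 over B cells (SE; edgeR adjusted p = 6.46e-08), -0.96 ± 0.130 over T cells and -0.98 ± 0.154 over monocytes. The values in either library alone kept this direction. Srebf1 did not pass in any of the 3 contrasts. Insig1 was lower in NK cells than in monocytes, by -1.15 ± 0.181 (edgeR adjusted p = 0.000129), and Insig2 lower than in B cells, by -0.70. The NK and B cell intervals of Insig2 overlapped in Vehicle. Scap and Stard4 did not pass in any contrast.

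Some enzymes of the pathway passed, in both directions. So did many genes: 24.2% of all tested were higher and 23.8% lower in NK than in B cells. Against T cells these shares were 19% and 18.1%, and against monocytes 26.1% and 25.5%. Pmvk was lower in NK cells than in B cells, by -1.39 ± 0.170 (edgeR adjusted p = 1.35e-05), and than in monocytes, by -1.47. Mvd, the decarboxylase that makes isopentenyl diphosphate, was lower than in monocytes, by -1.65 ± 0.281 (edgeR adjusted p = 0.000245), and than in T cells, by -1.14. The NK and T cell intervals of Mvd overlapped in Vehicle. Mvk and Ggps1 were lower than in B cells and T cells, and Acat2 lower than in T cells. Mvk had 9 UMIs in Glutoborin and 14 in Vehicle NK cells, and its NK interval overlapped both others in Vehicle. The Acat2 intervals of NK and T cells overlapped in both libraries. In the sterol arm Ebp was higher in NK cells than in B cells, by 0.92 ± 0.104 (edgeR adjusted p = 6.90e-06), and than in T cells, by 0.49. Msmo1 and Sqle were lower than in all 3 other gates. Tm7sf2 was lower than in B and T cells, Hsd17b7 lower than in B cells and Dhcr7 lower than in T cells. Tm7sf2 had 0 UMIs in Glutoborin and 3 in Vehicle NK cells, and Hsd17b7 had 7 and 13. For both, these intervals overlapped in Vehicle, and those of Dhcr7 overlapped in both libraries. Lss was higher than in monocytes, which had 5 and 4 UMIs of it, and these intervals overlapped in Glutoborin. Fdps was lower in NK cells than in monocytes by -0.99 ± 0.390 (edgeR adjusted p = 0.0477), a value that rested on the Glutoborin library: there it was -2.33 on the CPM scale, and in the Vehicle library 0.38. Sqle likewise was at -3.09 in Glutoborin and 0.23 in Vehicle. For Sqle against B and T cells, NK cells had 2.51 CPM in Glutoborin, with 13.5 and 11.8 CPM in the others. In Vehicle these were 10.2, 15.9 and 15.04 CPM, and the NK interval overlapped both others. Msmo1 had 15.9 CPM in NK and 26.2 CPM in T cells in Glutoborin, with intervals apart. In Vehicle it had 26.5 and 29.5 CPM, with overlapping intervals. Against B cells the Msmo1 intervals were apart in both libraries. Against monocytes they overlapped in Vehicle alone. Hmgcs1, Idi1, Fdft1, Cyp51, Nsdhl, Sc5d and Acaca passed in none of the contrasts.

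Both exporters were low in NK cells. Abca1 stood at 5.85 CPM in Glutoborin and 4.08 CPM in Vehicle NK cells, against 29.3 and 21.4 CPM in B cells, a log2 fold change of -2.53 ± 0.245 (SE; edgeR adjusted p = 1.41e-06), and did not pass against T cells or monocytes. Abcg1 was lower in NK cells than in monocytes, by -1.13 ± 0.200 (edgeR adjusted p = 0.000326), than in T cells, by -0.72, and than in B cells, by -0.60. In the Glutoborin library alone Abcg1 of NK cells was -0.08 from B cells and -0.22 from T cells, with intervals that reached no change, and in the Vehicle library alone -0.96 and -1.05.

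Smaller gates were described by their levels. Dendritic cells, 61 in Glutoborin and 36 in Vehicle, had the highest sterol pathway sums of the gates named here, 771 and 833 CPM, with intervals above those of the NK, B, T and monocyte gates in both libraries. Their Fdps stood at 157 and 180 CPM and their Hmgcs1 at 85.2 and 67.1 CPM. Macrophages were gated again as cells with at least 2 UMIs of C1qa and 1 of Vcam1. Cells of the B, T, NK and neutrophil gates and those set aside were left out. This gate, chosen after the data were seen, held 43 Glutoborin and 33 Vehicle cells. Their macrophage check markers summed to 7617 and 7735 CPM, and their neutrophil markers to 5004 and 101 CPM. Abcg1 reached 321 CPM in Glutoborin and 295 CPM in Vehicle macrophages, and Abca1 99.6 and 62.2 CPM. The Abcg1 interval lay above that of each of the 4 larger gates in both libraries. Cycling cells of any gate, with Mki67 and Top2a, were 105 and 99. Their sterol pathway summed to 466 CPM in Glutoborin and 527 CPM in Vehicle, a log2 ratio of -0.18 (-0.31 to -0.05).

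Genes next to the pathway were mostly within 1.5-fold, as were most measured genes. Of 16 genes of sterol sensing, storage and transport, 9 were measured in the NK gate. None was 1.5-fold higher or lower, against 7.33% and 5.77% of all genes measured in that gate. Mylip, an LXR target that degrades lipoprotein receptors, had 113 CPM in Glutoborin and 90.2 CPM in Vehicle NK cells, a log2 ratio of 0.33. In monocytes 13 of the 16 were measured, 1 at least 1.5-fold higher and 2 lower, against 4.21% and 5.85% of all measured genes. Cd36, a receptor for fatty acids and oxidised lipoproteins, was the higher one, at 0.60 (0.10 to 1.10), and is named because it is the gene counted. Stard3 and Osbp, sterol carriers of endosomes and Golgi, were at -0.67 and -0.84, and Npc2, which moves cholesterol out of lysosomes, was at -0.48, with 1297 CPM in Glutoborin and 1805 CPM in Vehicle. Of 19 genes of fatty acid elongation, desaturation and supply, 10 were measured in NK cells, 0 of them higher and 1 lower, beside the same NK shares. The 1 lower gene was Hsd17b12 of the elongation cycle, at 23.8 CPM in Glutoborin and 38.2 CPM in Vehicle, a ratio of -0.68. None of the 7 measured genes of 10 in the isoprenoid branch was 1.5-fold apart in NK cells, again beside these shares.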

How the data were processed

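The 2 libraries of single-cell 3′ RNA counts were analysed, 1 per group. The authors deposited raw UMI counts, whole numbers for each gene in each barcode. Per the file headers, Cell Ranger 6.1.2 made the matrices, while the submitters' processing notes list Cell Ranger 6.0.1, Seurat 4.3.0 and mm10. The annotation release was not stated in the sources used here. Barcodes needed 300 genes and 500 UMIs or more, with less than 10% of UMIs mitochondrial. Doublets called by Scrublet in scanpy 1.11.5 were left out, 352 in Glutoborin (3.80%) and 196 in Vehicle (2.93%). T cells had a UMI of Cd3e, B cells of Cd79a and Ms4a1, and monocytes of Csf1r with 3 or more of Lyz2. UMIs were summed per library and gate.

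Levels have exact Poisson intervals, and ratios have the exact interval of a ratio of Poisson counts, both at the 95% level (scipy 1.17.1). The gates were compared with edgeR 4.0.16 in R 4.3.3, on 8 sums with TMM scaling and edgeR's filter on low counts. Standard errors are the fold change over the square root of its F statistic. Tested on simulated counts of 12180 genes, this recovered 77% of 2-fold changes for NK over B, 74% over T and 60% over monocytes. Lists of S phase and of G2 and M phase genes, in wide use for scoring single cells, were added after the data were seen. The alternatives were DESeq2 1.42.0, other filters, gates and scalings.

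The members, lists and tests were chosen with earlier results of these data known. Values were given first to the up to 8 measured members per gate whose interval lay farthest from no change, some as ratios only. In the contrasts they went to the 10 members with the smallest adjusted p and both exporters. Other members were given values outside this rule, among them Acat2, Scd1 and Fdft1 in B cells. Gene positions are from GENCODE M21.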

Additional observations from a re-analysis of the deposited data

Results flagged for a closer look

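The sterol pathway and several of its members differed from Vehicle in opposite directions in monocytes and in lymphocytes. In each case below, the interval of the ratio of Glutoborin over Vehicle lay above no change in the first gate and below it in the second. The difference between the gates itself was not tested, since each group is 1 library. The log2 ratio of the sterol pathway sum in monocytes exceeded that in NK cells by 0.99, in B cells by 0.59 and in T cells by 0.56. For the sum of all 25 synthesis genes these differences were 0.71, 0.39 and 0.48. Fdps differed most, by 2.71 between monocytes and NK cells, by 1.35 between monocytes and B cells and by 1.18 between monocytes and T cells. Sqle differed by 1.53 between monocytes and B cells and by 1.65 between monocytes and T cells. Its interval in B cells barely missed no change, with an upper bound of -1.49e-05. Its monocyte value rested on 37 UMIs in Glutoborin and 17 in Vehicle, with 59.5% and 82.4% of them in 10 cells. Hmgcs1 differed by 1.20 between monocytes and NK cells and by 1.02 between monocytes and T cells. Scd1 differed by 0.62 between B and T cells, on 70 and 83 UMIs in Glutoborin and Vehicle T cells. In monocytes the values for Fdps, Sqle, Hmgcs1 and the sums had intervals that reached no change once cells were thinned to 2000 UMIs.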

How the results depend on the processing

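Each Glutoborin value rests on 1 library, so the spread between animals is unknown, and most members had under 100 UMIs in NK cells and monocytes. Thinning each cell to 2000 UMIs left 2 measured members in NK cells and 1 in monocytes, so the counts there, 0 higher and 0 lower in both gates, and the NK median of 0.087, above 0 where it had been -0.42, come from fewer members. Of all genes measured after thinning, 6.87% were higher and 7.41% lower in NK cells, and 5.13% and 10.4% in monocytes. Thinned, monocytes had ratios of 0.11 for the 25 synthesis genes and 0.17 for the sterol pathway, and Srebf1 in NK cells 0.47. Thinned B cells had 1 member higher and 3 lower, against 2.52% and 3.57% of measured genes. Thinned T cells had 3 lower, against 3.84%. Without the 10 richest cells NK cells had -0.30 for synthesis and -0.45 for the sterol pathway. Without cells with Mki67, 4 members were lower in NK cells and 1 in B cells, against 4.96% and 3.21% of measured genes. A floor of 20 UMIs gave 12 lower of 32 in NK cells, against 7.77% of all genes past that floor, and 7 higher of 28 in monocytes, against 7.51%. Stricter gates left 0 lower in monocytes, against 5.76% of measured genes, and TMM scaling 0 lower in T cells, against 2.97%. The cause of these shifts was not tested. Intervals of named members reached no change in 15 of 28 values when thinned, and in 4 of 28 each with stricter gates, without cells with Mki67 and without the richest cells. DESeq2 found 6 members lower in NK than in T cells, with 13.1% of genes, against 10 by edgeR, with 18.1% of genes. For NK over monocytes, Fdps ranged from -2.33 in the Glutoborin library to 0.38 in the Vehicle library, and Sqle from -3.09 to 0.23. Glutoborin and Vehicle, 1 library each, could not be paired, while the gates of a library were paired by the block. With no replicate block for library in the gate contrasts, 3 members were higher and 12 lower than in B cells, with 22.1% and 21.2% of genes. Without the block 3 were higher and 8 lower than in T cells, with 16.6% and 15.3% of genes. Against monocytes 4 were then higher and 6 lower, with 25.4% and 24.6% of genes.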
